A study of Homo sapiens with 2 samples.

Results

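RBM47 binds RNA, and a long run of its crosslinked fragments carried the authors' label deep intergenic on the plus strand of chromosome 2, next to TFPI. The run was made up of 623 clusters, out of 40168 deep intergenic clusters and 233546 clusters in the whole table. A cluster is a group of overlapping unique reads, called tags, and deep intergenic is a location label the authors gave to clusters without a gene name, whose distance limits are not given in the sources used here. Members were all clusters with that label alone that started at or above 188125402 and ended at or below 188353418 on that strand, in hg18 coordinates. The stretch was chosen by its number of tags, so its tag totals and its rank are a description and carry no test.

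The cells were MDA231-BrM2a, a brain metastatic derivative of the breast cancer line MDA-MB-231, with a doxycycline-inducible transgene for Flag-tagged, wild-type RBM47. The paper calls such cells non-clonal in another experiment, and does not state this for the libraries used here. Expression was induced over 3 days with doxycycline at 1 ng/ml, followed by ultraviolet crosslinking and Flag HITS-CLIP, which sequences the RNA fragments attached to the pulled-down protein. The labels give a single group, Flag-RBM47, with 2 replicates and nothing about separate cultures, so the spread between them may be technical. No library without the transgene or without crosslinking was analysed here, so signal cannot be set against a pull-down background. All values therefore concern the introduced, tagged protein at its induced level in this line.

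RBM47 carries RNA recognition motifs, the domains through which many proteins hold single-stranded RNA. Reads from outside gene annotations can come from long noncoding RNAs, from transcripts that start at a promoter in the opposite direction to its gene, and from transcription past a gene's end. TFPI encodes tissue factor pathway inhibitor, a secreted protein that blocks the tissue factor and factor VIIa complex and factor Xa at the start of blood coagulation. TFPI is transcribed from the minus strand, and the stretch therefore ran on the opposite strand, away from the TFPI 5′ end. RNA levels were not measured in these libraries, so more RNA and more binding per RNA cannot be told apart.

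Over the whole table, replicate 1 had 999047 tags and replicate 2 had 3489697. The median cluster of the table held 2 replicate 1 tags and 6 replicate 2 tags. As a description of the cell line, 5 markers of a mesenchymal-like basal line were counted. All 5 (VIM, CD44, EGFR, CAV1 and SPARC) had more than 100 tags each, as did 3801 of all 7712 genes with clusters. Tags depend on RNA level and binding together, so marker counts do not establish cell identity. Of 7 luminal markers, only EPCAM with 11 tags and ERBB3 with 6 tags had clusters, and ESR1, PGR, CDH1, GATA3 and KRT19 had no listed cluster.

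The location of the stretch relative to its neighbours was examined first. The last plus-strand cluster below it was a 3′UTR cluster of FAM171B, 786.5 kb away. The first member, at chr2:188125402-188125439, held 2 replicate 1 tags and 4 replicate 2 tags. It lay 2.02 kb below the end of the highest TFPI cluster, a 5′UTR cluster on the minus strand that ended at 188127418. Only 4 members, with 22 tags, started below that point, and the rest of the stretch lay beyond that cluster, upstream with respect to TFPI. The last member, at chr2:188353328-188353418, held 1 and 4 tags. Just outside the upper bound, a deep intergenic cluster of 5 tags at chr2:188387424-188387538 stood 34.01 kb away, and another of 6 tags 60.02 kb away. The next plus-strand gene with clusters was GULP1, 514.8 kb above, whose product takes part in the engulfment of apoptotic cells. In RefSeq on GRCh38.p14, a different build used here for gene order only, the first loci that follow TFPI include the lncRNAs LOC105373788, LINC01090 and LOC124907927 and the pseudogene ST13P2, and GULP1 is the first protein-coding gene. Their positions and strands were not compared with the stretch. The stretch is thus set between TFPI and GULP1, with no plus-strand cluster of any other label inside it.

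Both libraries contained the stretch at nearly the same relative level. It held 4807 replicate 1 tags and 16991 replicate 2 tags, or 4.81 and 4.87 per 1000 tags of the replicate, with a mean of 4.84 ± 0.0405 (SD, n = 2). By the authors' total it held 21546 tags, which made up 0.485% of all tags in 0.267% of the clusters. Among deep intergenic tags its share was 3.89% ± 0.214 (SD, n = 2), and on the plus strand alone 6.62% ± 0.338 (SD, n = 2). When deep intergenic clusters with gaps of at most 20 kb were joined, 2114 stretches resulted, and this one ranked 3 by tags in the authors' total and in each replicate. The pair above it were a plus-strand stretch of chromosome 11 with 85121 tags and a minus-strand stretch of chromosome 3 with 53141 tags.

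Summed tags can also be set beside genes. Of 7712 genes with clusters, 5 had more tags in all than the stretch: NEAT1, MALAT1, EXT1, ZFAND3 and CANX. The next below was FRMD6 with 20567 tags. These sums do not correct for length. Per kb of clustered sequence, the stretch held 252 tags, and EXT1, FRMD6 and ZFAND3, with 1209, 720 and 1340 clusters, held 280, 221 and 161. The nuclear noncoding RNAs NEAT1 and MALAT1, and CANX, which encodes the chaperone calnexin of the endoplasmic reticulum, had 5648, 10316 and 5022 tags per kb in 5, 1 and 20 clusters. Among these genes the stretch thus stood between FRMD6 and EXT1 in tags per clustered kb. TFPI, with only 48 clusters, held 283, so a value of this size is not particular to genes with many clusters.

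Tags were then followed along the stretch, in 10 kb bins from the start of the first member, which is also the 5′ side for a plus-strand RNA. The 0 to 10 kb bin held 20 replicate 1 tags and 54 replicate 2 tags in 10 clusters. The 10 to 20 kb bin held 266 and 906 tags, and the 20 to 30 kb bin 639 and 2298. The signal thus started at a low level beside TFPI and rose over the next 30 kb. The fullest bin, from 30 to 40 kb, held 779 and 2873 tags, and its 39 clusters covered 93.4% of the bin. Members with at least 30 tags began at 13.8 kb, and those with at least 100 tags at 16.7 kb.

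Levels stayed high to 80 kb. The bins from 40 to 80 kb held between 432 and 584 replicate 1 tags and between 1515 and 2037 replicate 2 tags. The bins from 10 to 80 kb together made up 77.7% of the stretch by the authors' total. From 80 to 100 kb the bins held 253 and 307 replicate 1 tags, and from 100 to 110 kb the number was 93. The level fell further at 110 to 120 kb, to 26 and 90 tags, and no cluster was listed between 114.5 and 124 kb.

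A second, lower rise followed the gap. The bins from 120 to 150 kb held 80, 132 and 113 replicate 1 tags, and 247, 471 and 358 replicate 2 tags. The largest of the clusters there had 51 tags. Beyond 150 kb, 48 clusters held 331 tags, 1.54% of the stretch, and none of them had more than 13. The low early bins, the main body and the later rise had the same order in both libraries, and across the 23 bins the replicates gave a Spearman's rho of 0.990. All bins come from the same pair of libraries, so this value is a description.

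**Figure D1:**
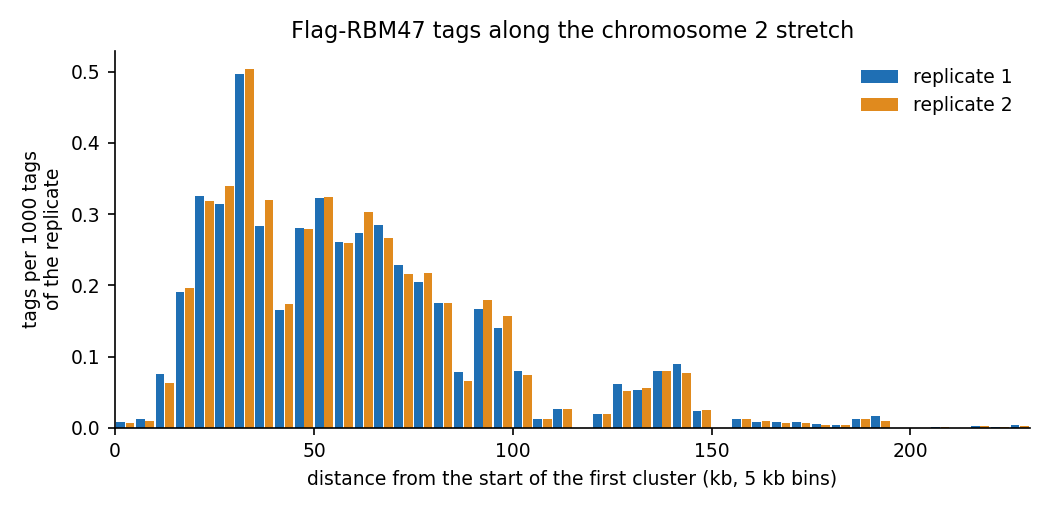
Tags in 5 kb bins along the stretch, as tags per 1000 tags of the replicate (vertical axis), against distance from the start of the first cluster in kb (horizontal axis). Blue bars are replicate 1 and orange bars replicate 2. The bars of both replicates start low, are highest at 30 to 35 kb, drop after 100 kb and show a lower rise between 120 and 150 kb.

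In all, 89.5% ± 0.548 (SD, n = 2) of the tags lay in the first 100 kb, with 89.1% in replicate 1 and 89.9% in replicate 2. That part held 426 of the 623 clusters. The median cluster there had 25 tags and a length of 118.5 nt, against 8 tags and 84 nt in the 197 clusters beyond. All 48 members with at least 100 tags started in the first 100 kb, and 6 members of at least 30 tags lay beyond it. Across members, tags fell with distance, with a Spearman's rho of -0.45 in replicate 1 and -0.47 in replicate 2. Counted from the 5′ end, 10% of the tags were reached at 24.04 kb, 50% at 53.96 kb and 90% at 100.7 kb.

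The members that held the most tags were examined individually. The largest, at chr2:188194825-188195526, held 77 replicate 1 tags and 271 replicate 2 tags over 701 nt. The second, at chr2:188161084-188161554, held 69 and 277 tags. Next, a member at chr2:188156645-188157354 held 63 and 252 tags and was the longest member with 709 nt. These 3 had totals of 348, 346 and 315 and lay at 69.4, 35.7 and 31.2 kb, so the largest was apart from the others.

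The fourth, at chr2:188155439-188155735, held 62 and 228 tags in only 296 nt. With 97.97 tags per 100 nt it was the densest of the 10 largest. The fifth, at chr2:188158617-188159107, held 72 and 214 tags. The remaining members among the 10 largest were at chr2:188174399-188174879, chr2:188180194-188180715, chr2:188160646-188161078, chr2:188149598-188149963 and chr2:188160071-188160648, with totals from 211 to 261. Of these 10, 6 lay in the bin from 30 to 40 kb, and the other 4 at 24.2, 49.0, 54.8 and 69.4 kb. The 10 largest together held 12.7% of the tags, with 12.7% in replicate 1 and 12.6% in replicate 2 when each library was ranked by itself. As deposited, the signal was therefore spread over many clusters. This depends on how adjoining signal was cut into clusters. The 10 leading regions held 50.06% of the tags once members closer than 50 nt were merged.

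Neighbouring members often touched. The median gap between members was 24 nt, and 85 of the gaps were at or below 0 nt. Members covered 37.5% of the stretch. When those closer than 50 nt were merged, 230 regions were left, and the 10 with the most tags held 50.06% of the tags. The region with the most tags joined 28 clusters over 5953 nt, at chr2:188177620-188183573, and held 449 replicate 1 tags and 1536 replicate 2 tags. The second, at chr2:188154330-188158082, joined 12 clusters with 370 and 1370 tags. Another, at chr2:188158274-188161867, also joined 12 clusters, with 372 and 1341 tags. These last regions adjoined in the fullest part of the stretch, whereas the first began at 52.2 kb.

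The 3 widest gaps were all on the far side. The widest, of 13946 nt, lay between a member of 8 tags at chr2:188317845-188317933 and a member of 5 tags at chr2:188331879-188331926. The second, of 9610 nt, ran from that same member to one of 7 tags at chr2:188341536-188341625. The narrowest of the 3, of 9562 nt, separated a member of 7 tags at chr2:188239738-188239879 from one of 28 tags at chr2:188249441-188249594, and marks the break between the main body and the later rise.

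Members ranged from 5 to 348 tags by the authors' total, with a median of 16 and quartiles of 8 and 39.5. In replicate 1 the median was 4 tags and in replicate 2 it was 12. At least 10 tags were present in 423 members (67.9%), at least 30 in 199 (31.9%) and at least 100 in 48 (7.71%). Over all deposited clusters these shares were 40.7%, 9.47% and 1.93%. Since tags chose the stretch, nothing is read from this difference. Each table entry needed at least 5 tags in total, and 50 members were at that minimum.

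Cluster length, which the choice of the stretch did not use directly, was compared at like tag numbers, since length rises with tags (Spearman's rho of 0.818 across members). In the class of 10 to 29 tags the median length was 99 nt in 224 members, 103 nt in the chromosome 11 stretch, 91 nt in the chromosome 3 stretch, 106 nt in introns and 98 nt in 3′UTRs. In the class of 30 to 99 tags it was 178 nt in 151 members, against 190.5, 170, 202 and 176 nt in the same order. The quartiles of members in that class, 137 and 242.5 nt, spanned all of these medians. Among 100 to 348 tags, members had a median of 366 nt, the chromosome 11 stretch 404.5 nt and the chromosome 3 stretch 348.5 nt. Intron clusters had 387 nt and 3′UTR clusters 335.5 nt. The quartiles of members in this class were 301.8 and 481.8 nt. Lengths were thus close to those of clusters of like size elsewhere. No test was made, because clusters of a stretch are not replicates.

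**Figure D2:**
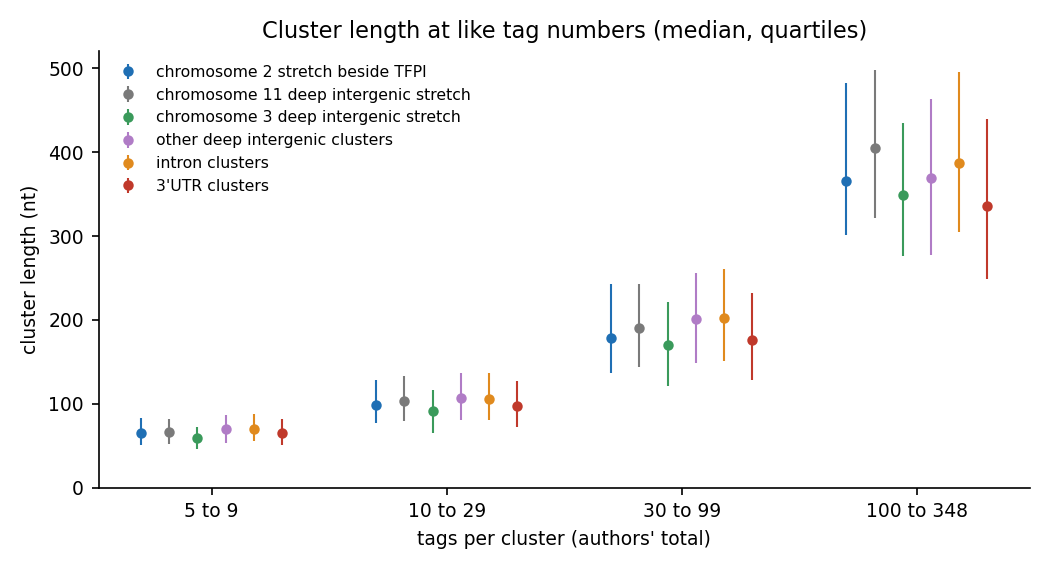
Cluster length in nt (vertical axis, points are medians and bars run from the lower to the upper quartile) in classes of tags per cluster by the authors' total (horizontal axis), for the chromosome 2 stretch and 5 other sets of clusters. The stretch, in blue, has medians of 65, 99, 178 and 366 nt, and the bars of all sets overlap in each class.

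The agreement between the libraries was then examined. It entered the choice of members only in that every listed cluster had at least 1 tag in each library. Replicate 1 held 22.05% of the tags in the stretch (Wilson 95% interval 21.5 to 22.6), and 22.3% over all clusters. The share was 21.7% in the chromosome 11 stretch, 21.7% in the chromosome 3 stretch and 24.1% in the remaining deep intergenic clusters. That last value lay outside the interval of the stretch. Shallow clusters had a higher replicate 1 share in all sets compared. It was 25.5% in members of 5 to 9 tags and 27.4% in remaining deep intergenic clusters of that size. Clusters of that size made up 32.1% of members and 68.2% of the remaining deep intergenic clusters. Every listed cluster had at least 1 tag in each library, so shallow clusters without a replicate 1 tag are absent. The effect of this on the shares was not tested, and the intervals cover counting error only. At 10 to 29 tags the share in members was 23.2% (Wilson 95% interval 21.85 to 24.52). It was 22.2% in the remaining deep intergenic clusters, 21.1% in the chromosome 11 stretch and 21.4% in the chromosome 3 stretch. At 30 to 99 tags the shares were 21.5% in members and 21.4% in the remaining deep intergenic clusters.

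Each cluster's split between the libraries was tested against the share over all clusters, with an exact binomial test adjusted by Benjamini-Hochberg over the 233546 clusters of the table. Over all clusters, 26 were called (0.0111%). None of the 623 members was called by this test, nor by 3 alternative settings. The alternatives also called few clusters of the table. These were 18 with the expected share from the median ratio, 10 with the beta-binomial test and 32 of 22118 clusters of at least 30 tags. At such low rates, the lack of a call among members says nothing particular about the stretch. In the exact binomial test itself, 20 members had an unadjusted p below 0.05 (3.21%), against 3.04% of the table, so the members were near the background. With the expected share taken from the median ratio, the unadjusted count was 27 of 623 (4.33%), against 3.31% of the table. In the beta-binomial test it was 14 of 623 (2.25%), against 1.37%, and among clusters of at least 30 tags 13 of 199 (6.53%), against 6.46%. The lowest p belonged to a member at chr2:188164784-188165006, with 1 replicate 1 tag and 35 replicate 2 tags. It was chosen for mention after its value was seen. The test compares these libraries and not conditions, and with a median of 4 replicate 1 tags per member the depth limits it to large imbalances.

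In members with at least 30 tags, the replicate 1 share ranged from 2.78% to 39.02% with a median of 21.3%. Its SD across 199 members was 5.42 percentage points, and counting error alone gave 5.34. Across the 22118 clusters of that size in the table the values were 5.99 and 5.58. The counts of the 2 replicates in members had a Spearman's rho of 0.806. It was 0.894 in the chromosome 3 stretch, 0.675 in the chromosome 11 stretch, 0.447 over all clusters and 0.26 in the remaining deep intergenic clusters. Among these sets, rho was higher where the median cluster had more tags. Since tags chose the stretch, nothing is read from this difference. Among 14 bins of 10 kb with at least 100 tags, the replicate 1 share was between 20.8% and 24.5%, with a median of 22.2%. Both libraries thus had a like profile in the bins with enough tags.

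**Figure D3:**
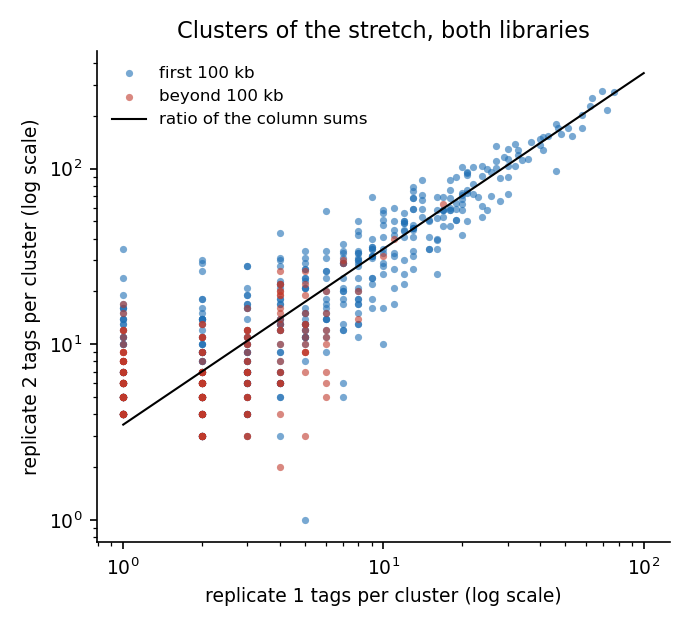
Replicate 2 tags (vertical axis, log scale) against replicate 1 tags (horizontal axis, log scale) for the 623 clusters. Blue points lie in the first 100 kb, red points beyond it, and the line is the ratio of the column sums of the table. Points with many tags lie along the line, and the red points are all among the smaller clusters, with at most 78 tags.

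On the opposite strand of the same window, 3 clusters with 29 tags were listed, all of them TFPI. An intron cluster at chr2:188126021-188126100 held 2 replicate 1 tags and 8 replicate 2 tags. A pair of 5′UTR clusters held 5 and 16 tags together. All 3 lay within the first 2.02 kb, and beyond that point the window had no minus-strand cluster. The windows of the chromosome 11 and chromosome 3 stretches had 0 clusters on their opposite strands.

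TFPI itself (Entrez gene 7035) had 48 clusters with 334 replicate 1 tags and 1371 replicate 2 tags, equal to 0.364 ± 0.0414 (SD, n = 2) of every 1000 tags. Most of these tags lay at the other end of the gene. Clusters labelled 3′UTR held 950 tags and the cluster labelled CDS and 3′UTR held 340, while 29 intron clusters held 231 and 3 clusters in 5′UTRs held 25. The stretch had 14.4 times as many tags as TFPI in replicate 1 and 12.4 times in replicate 2, a ratio of 13.4 ± 1.41 (SD, n = 2). Per kb of clustered sequence the order was turned, with 283 tags in TFPI and 252 in the stretch.

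The other genes around the stretch had less signal than it in total. ITGAV, which encodes the integrin αV subunit, had 1091 replicate 1 tags and 3955 replicate 2 tags, of which 3718 by the authors' total were in a single cluster. FAM171B had 107 and 345 tags and GULP1 117 and 376. COL5A2, a fibrillar collagen chain, had a single cluster of 8 tags, and WDR75, a factor in ribosome biogenesis, had 55 tags.

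As TFPI acts in the tissue factor pathway, the tags of 13 genes of that pathway and of pericellular proteolysis were counted. Of these, 10 had clusters and 8 had more than 100 tags, against 3801 of all 7712 genes with clusters. The median over the 10 was 990.5 tags, and over all genes with clusters it was 96. The list includes TFPI and was written with earlier results of these data known, and tags also depend on RNA level. Nothing is therefore read from this difference. F3, tissue factor itself, had 921 replicate 1 tags and 3386 replicate 2 tags, or 0.946 ± 0.0342 (SD, n = 2) per 1000. Among receptors, THBD (thrombomodulin) had 1825 tags, F2RL1 1660 and F2R 1467. The related inhibitor TFPI2 had 514 tags, PROS1 378, PLAU 273, PLAUR 84 and PROCR 70. The coagulation factors F7, F10 and F2, made mainly in the liver, had no listed cluster.

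The shape of the stretch was set beside the 2 larger ones. From the 5′ end up to the midpoint of the span it held 92.04% of its tags, with 91.5% in replicate 1 and 92.1% in replicate 2. The chromosome 11 stretch held 70.3% there and the chromosome 3 stretch 65.4%. Its span was 228 kb, compared with 863.8 and 192.6 kb, and its coverage by clusters was 37.5%, compared with 48.2% and 73.8%. With 94.5 tags per kb of span it was near the chromosome 11 stretch at 98.6, and below the chromosome 3 stretch at 275.9. These spans depend on the joining rule, and sparse outer clusters lengthen them.

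**Figure D4:**
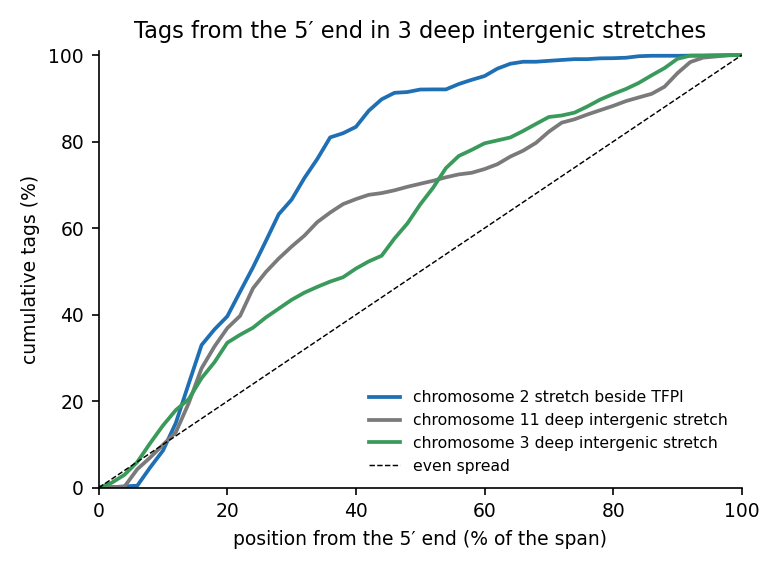
Cumulative share of tags in percent (vertical axis) against position from the 5′ end in percent of the span (horizontal axis), by the authors' total. Blue is the chromosome 2 stretch, grey the chromosome 11 stretch, green the chromosome 3 stretch, and the dashed line an even spread. At 50% of the span the blue line is at 92% and the other lines are at 65% to 70%.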

How the data were processed

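HITS-CLIP libraries of 2 replicates were used. The authors tailed the RNA fragments with poly(A), added degenerate barcodes on reverse transcription, collapsed copies to unique tags and clustered overlapping tags on Galaxy. Novoalign and the build hg18 are named in the submitters' processing notes, with no version. The authors deposited, for each cluster, counts of tags from either replicate and a total. Listed clusters have a minimum of 5 tags in total and 1 in either library, so absent entries are not zeros and column sums are not library depths.

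Positions were used as deposited, and whether they count from 0 or 1 is not known. On GRCh37, 0 of 48 TFPI clusters overlapped TFPI. No sequence or reference position was therefore used.

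The members and the lists were chosen with earlier results of these data known. Named clusters are the 10 largest, the first, the last, the longest and those at the 3 widest gaps. Named genes are TFPI, 3 neighbours with clusters per side and the pathway list, of which 1 gene is not reported here and was left out of the counts. Length is end minus start. Replicate columns served for comparisons between libraries and the authors' total for ranks. In 149 members (23.9%) the replicate columns exceeded the total, by 252 tags in all. Of all clusters, 13.2% did. The exact binomial test (scipy 1.17.1, statsmodels 0.14.6, threshold 0.05 after Benjamini-Hochberg adjustment) ran across all 233546 clusters. It was tried on simulated data with changed splits only in clusters of at least 100 tags, and most members were smaller. Intervals cover counting error only.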

Additional observations from a re-analysis of the deposited data

How the results depend on the processing

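Among 48 alternatives, 22 moved and 26 did not. Moved means a shift by more than the replicate SD or 95% interval, a count changed by over 1.5 times, or a changed rank. Some of the 26 could not have moved. For tags per 1000 of the stretch and of TFPI, the main value was the mean of both replicates. Leaving 1 replicate out then always stays within their SD. Median tags per cluster was also set against tags per 100 nt, which is a different unit. The alternatives were not set up to detect a reversed direction. A minimum of 10 tags gave 5.77 tags of the stretch per 1000, 8.98% of plus-strand deep intergenic tags, a median of 26 tags and 135 nt per cluster, 92.8% of tags in the first 100 kb, 0.119% on the opposite strand and 0.423 TFPI tags per 1000. A minimum of 30 tags gave 6.89 per 1000 and 199 clusters. Scaled to deep intergenic tags, the stretch had 38.9 per 1000. Merging below 50 nt gave 230 regions with a median of 136.5 nt, the 10 leading of which held 50.06% of tags. The 5 leading clusters held 7.36%. The rank was 7 by number of clusters and 7 by tags per kb of span.

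With each replicate left out, the plus-strand share ranged from 6.38% to 6.86%, clusters with at least 5 tags in the remaining library from 271 to 552, median tags from 4 to 12, tags in the first 100 kb from 89.1% to 89.9% and the opposite strand from 0.141% to 0.145%. Replicate 1 alone gave the lowest count and median by its depth. No member was called with an expected share from the median ratio, with clusters of at least 30 tags or with the beta-binomial test. Those settings called only 18, 32 and 10 clusters of the table. No paired analysis was possible because all libraries belong to 1 group.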

Other observations

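The 5′ surroundings of other long runs of deep intergenic clusters were counted after the values of the chromosome 2 stretch had been seen. With gaps of at most 20 kb joined, 88 stretches had at least 100 clusters. In 72 of them more tags lay before the midpoint of the span than after it, counted from the 5′ end. The share ranged from 24.7% to 98.6% with a median of 70.3%, and the chromosome 2 stretch, with 92.04%, was at place 4. Midpoints depend on the joining rule, since sparse far clusters move them. With gaps of at most 10 kb joined, the chromosome 2 stretch ended at 188317933 with 617 clusters and 21512 tags. Its midpoint then lies closer to the 5′ end, and its share and place under that rule were not computed.

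A cluster of a gene on the opposite strand lay within 5 kb of the 5′ end in 6 of the 88 stretches (6.82%). Beside TFPI, these include a stretch of 372 clusters beside SMC6 on chromosome 2, at 17713568 to 17788612, whose share before the midpoint was 52.5%. In 31 of the 88 a cluster of a gene on the same strand lay within 20 kb upstream. The chromosome 2 stretch was among the 5 with an opposite-strand gene and no same-strand gene at these distances.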
